A study of Mus musculus with 12 samples.

Results

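Axon guidance ligands and receptors were examined in 2 brain regions of the mouse, prefrontal cortex and striatum, on postnatal day 24. The genes were chosen by symbol: Eph receptors, ephrins, semaphorins of classes 3 to 7, plexins, neuropilins, netrins with the receptors Dcc and Unc5, and Slits with Robo receptors. They also needed a mean of at least 1 CPM (counts scaled to a common library total) over the 12 libraries. Among 21872 gene symbols counted, 69 matched these names, and 67 reached the minimum. Just inside it lay Ntn5 with 1.28 CPM and Epha2 with 1.37 CPM, and just outside Epha1 with 0.426 CPM and Efna4 with 0.293 CPM. The 67 genes were 13 Eph receptors, 7 ephrins, 20 semaphorins, 9 plexins, 2 neuropilins, 9 netrins and netrin receptors, and 7 Slits and Robos, or 34 ligands and 33 receptors.

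Guidance ligands are secreted or membrane-bound proteins that attract or repel a growing axon through receptors on its growth cone. Ephrins signal through Eph receptor tyrosine kinases at cell contacts. Semaphorins signal through plexins, with neuropilins as co-receptors for most class 3 members. Netrin-1 attracts through Dcc and repels through Unc5 receptors, and Slits repel through Robo receptors. After axons have arrived, many of these proteins remain in the brain at synapses, on glia and on blood vessels, and Dcc and netrin-1 are known for their part in the growth of dopamine axons into striatum and prefrontal cortex.

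C57BL/6J mice given 6-hydroxydopamine (6-OHDA), a toxin for dopamine neurons, served in the series as a model for attention-deficit/hyperactivity disorder. The labels gave 4 groups of 3 libraries: lesioned prefrontal cortex and lesioned striatum, where the genotype field reads ADHD, and control prefrontal cortex and control striatum, where it reads CTL. The sources used here do not give the dose, route or day of 6-OHDA, or what the control mice received. Whether the 3 libraries in each group stem from different animals is not labelled, so p-values measure only the spread among libraries, which may be technical. It is also not labelled whether both regions came from the same mice.

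Total counts were 15078631 to 20925452 per library, so that 3 counts corresponded to 0.143 to 0.199 CPM, a floor that covers counting error only. Levels below are CPM scaled by TMM factors over the 12 libraries. The biological coefficient of variation was 5.78% among the 6 prefrontal libraries and 14.9% among the 6 striatal ones. Markers of cortical excitatory neurons summed to 4349 to 4736 CPM in prefrontal libraries and 539 to 1470 CPM in striatal ones. Markers of striatal projection neurons summed to 1042 to 1923 CPM in prefrontal and 3272 to 16896 CPM in striatal libraries. A pair of striatal libraries stood apart: in lesioned library 1 the projection neuron markers summed to 16896 CPM against 6585 and 9551 CPM in the other lesioned libraries, and in control library 2 the choroid plexus and ependymal markers summed to 2155 CPM against 93.3 and 115 CPM in the other controls. In that control library the markers of cortical excitatory neurons summed to 1470 CPM, against 539 and 609 CPM in the other controls. Where leaving these striatal libraries out ended a call or moved a named striatal value by over 1.5 times, the value without them is given.

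Per kilobase of exon, which allows levels to be compared between genes, the highest guidance transcripts of control prefrontal cortex were the membrane-anchored semaphorin Sema7a with 53.1 CPM per kb and Ephb6, an Eph receptor without kinase activity, with 50.9. Next came the transmembrane semaphorin Sema6b with 40.2, the ephrin receptor Epha4 with 34.8 and the netrin receptor Unc5a with 27.8 CPM per kb. In control striatum the transmembrane ephrin Efnb3 was highest with 66.7 CPM per kb, followed by Sema6b with 30.2 and Epha4 with 22.9. Epha2 was at the low end in both, with 0.302 and 0.376 CPM per kb. The leading gene thus differed between the regions, while Sema6b and Epha4 were among the highest in both.

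The first comparison asked which guidance genes differed between lesioned and control prefrontal cortex. After the lesion 9 of the 67 genes were higher and 0 were lower. They were the netrin system genes Dcc, Unc5d and Ntn5, the Robo ligand Slit2, the Eph receptors Ephb6 and Epha6, the semaphorins Sema7a and Sema5a, and the semaphorin receptor Plxna2. The changes were of 1.15-fold to 2.52-fold, and 8 of the 9 were 1.41-fold or less. Both ligands (4 of 34) and receptors (5 of 33) were among them. Calls were made with edgeR's quasi-likelihood test at a Benjamini-Hochberg adjusted p below 0.05. Over all 14018 genes tested 5.73% were called, 3.45% as higher and 2.28% as lower, against 13.4% of the 67. Ntn5 reached the minimum of 1 CPM only through lesioned prefrontal cortex, since the mean of its other 3 groups was 0.726 CPM, so its choice favoured a rise; without it 8 of 66 genes were higher. In bulk tissue fewer cells of a type and less RNA per cell cannot be told apart, here and in every comparison that follows.

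The upstream sequences of 4 genes that rose are shown as those of the called genes with the smallest p-values among those with a printable window. Each line gives the 250 bases before the RefSeq start (build GRCm38.p6), 5′ to 3′ on the gene's strand, and capitals mark a GC box, GGGCGG or its reverse complement CCGCCC. The window of Slit2 is chr5:47982905-47983154, that of Ephb6 chr6:41605261-41605510, that of Ntn5 chr7:45683772-45684021 and that of Sema7a chr9:57939862-57940111, all on the plus strand. The last bases of the Slit2 and Ephb6 windows fall within the first exon of a GENCODE transcript.
Slit2: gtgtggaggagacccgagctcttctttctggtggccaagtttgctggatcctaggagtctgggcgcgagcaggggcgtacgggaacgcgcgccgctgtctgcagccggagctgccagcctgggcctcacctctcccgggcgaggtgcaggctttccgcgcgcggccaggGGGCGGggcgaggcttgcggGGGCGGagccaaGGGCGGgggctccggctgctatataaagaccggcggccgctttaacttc
Ephb6: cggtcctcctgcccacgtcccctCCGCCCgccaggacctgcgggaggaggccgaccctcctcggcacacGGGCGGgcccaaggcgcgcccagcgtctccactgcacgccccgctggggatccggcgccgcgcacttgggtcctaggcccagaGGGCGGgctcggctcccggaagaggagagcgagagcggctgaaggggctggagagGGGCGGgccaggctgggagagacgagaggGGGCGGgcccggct
Ntn5: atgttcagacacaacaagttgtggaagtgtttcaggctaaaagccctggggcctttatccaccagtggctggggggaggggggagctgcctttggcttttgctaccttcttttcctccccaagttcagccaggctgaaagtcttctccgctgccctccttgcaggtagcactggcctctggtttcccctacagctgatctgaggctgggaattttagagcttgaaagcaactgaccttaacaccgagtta
Sema7a: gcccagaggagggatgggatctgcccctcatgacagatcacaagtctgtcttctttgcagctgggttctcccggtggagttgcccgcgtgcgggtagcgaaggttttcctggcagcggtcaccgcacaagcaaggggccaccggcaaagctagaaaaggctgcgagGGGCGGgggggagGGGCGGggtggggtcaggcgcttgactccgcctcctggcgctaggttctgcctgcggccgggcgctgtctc
The windows of Slit2, Ephb6 and Sema7a held 3, 5 and 2 GC boxes at a GC content of 69.6%, 76.8% and 66.4%. That of Ntn5 held 0 at 52.8%. Epha6, Plxna2 and Sema5a, whose windows are not printed, held 2, 2 and 5. Of 32851 RefSeq windows of this length 32.7% held a GC box on either strand. The cAMP response element half-site TGACG was in 17.8% of all windows and, on either strand, in 0 of the 7 examined. A TATA box, TATAAA, was found in the window of Slit2 and in 12.4% of all windows. Such matches describe letters in the window and are not measured binding sites.

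In GENCODE M21 on build GRCm38, Slit2 spans chr5:47983138-48307733, Ephb6 chr6:41605482-41620509, Unc5d chr8:28646717-29219636, Ntn5 chr7:45684022-45694556, Sema7a chr9:57940112-57962865, Epha6 chr16:59653483-60605531, Plxna2 chr1:194618218-194816869 and Sema5a chr15:32244810-32696341. Dcc spans chr18:71253634-72351069. Unc5d, Epha6 and Dcc lie on the minus strand and the others on the plus strand.

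In the netrin system 3 of 9 genes rose, or 2 of 8 without Ntn5, and 8 of 9, Ntn5 among them, had a fold change above 0. Dcc, the receptor through which netrin-1 attracts axons, measured 23.3, 26.2 and 25.2 CPM in controls and 33.8, 38.0 and 34.1 CPM after the lesion. The groups did not overlap. The means were 24.9 ± 1.47 and 35.3 ± 2.35 CPM (SD, n = 3 each), and the log2 fold change was 0.49 (adjusted p = 0.00281, SE 0.076). Unc5d, a receptor of the repulsive Unc5 family that also binds FLRT proteins, measured 56.2, 59.4 and 53.6 CPM in controls and 74.2, 70.3 and 74.3 CPM after the lesion. Again every lesioned library lay above every control library, with means of 56.4 ± 2.93 and 73.0 ± 2.29 CPM (SD, n = 3 each) and a log2 fold change of 0.36 (adjusted p = 0.00337, SE 0.057). The other Unc5 receptors did not pass the test, with log2 fold changes of 0.11 for Unc5a, 0.19 for Unc5b and 0.22 for Unc5c. Unc5a, which has the highest mean CPM of the netrin system, measured 114, 119 and 114 CPM in controls and 129.95, 125 and 123 CPM after the lesion.

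Ntn5, a secreted netrin, had the largest fold change, but it is the gene that the minimum admitted through this group alone, so its values are a description. Its counts were 24, 19 and 18 in controls and 59, 45 and 57 after the lesion. This corresponded to 1.18, 1.22 and 1.22 CPM against 3.10, 2.71 and 3.44 CPM, with no overlap, and to a log2 fold change of 1.34 (SE 0.22). Ntn5 overlaps the protein-coding gene Sec1 on the opposite strand over 10381 bp. Since the sources used here do not give the strand setting of the counting, reads of the pair may not have been told apart; Sec1 itself had 1 to 20 counts per library. The other netrins, Ntn1, Ntn3 and Ntn4, did not pass, with log2 fold changes of 0.067, 0.079 and -0.062.

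Among Slits and Robos 1 of 7 genes rose. Slit2, a secreted repellent ligand of Robo1 and Robo2, had the smallest p-value of all 67 genes. It measured 46.3, 48.9 and 48.3 CPM in controls and 63.8, 66.0 and 65.7 CPM after the lesion. The lesioned libraries lay close together and all above the controls, with means of 47.8 ± 1.40 and 65.2 ± 1.16 CPM (SD, n = 3 each) and a log2 fold change of 0.43 (adjusted p = 0.000794, SE 0.054). Its paralog Slit1 measured 82.4, 75.5 and 72.5 CPM against 87.0, 85.5 and 78.3 CPM, where the log2 fold change of 0.11 (adjusted p = 0.365, SE 0.063) did not pass. None of the 4 Robo receptors was called. Robo2, the one with the highest mean CPM, measured 179.9, 197 and 179 CPM in controls and 184, 198 and 187 CPM after the lesion, with overlapping groups.

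Of 13 Eph receptors 2 rose, and of 7 ephrins none was called. Ephb6, which binds ephrins but lacks kinase activity, measured 200.3, 188 and 188 CPM in controls and 239, 249 and 244 CPM after the lesion. The gap between the groups exceeded the range within either, and the log2 fold change was 0.33 (adjusted p = 0.00199, SE 0.047). Epha6, a receptor for ephrin-A ligands, measured 23.9, 28.3 and 26.7 CPM against 33.4, 34.3 and 32.9 CPM. Its groups did not overlap either, and the log2 fold change was 0.34 (adjusted p = 0.0176, SE 0.075). Epha4, the family member with the highest mean CPM, had overlapping levels of 276, 301 and 263 CPM and 268, 286 and 289 CPM. The ephrins with the smallest p-values were Efnb1 with a log2 fold change of 0.29 (adjusted p = 0.0891, SE 0.093) and Efna3 with 0.20 (adjusted p = 0.0934, SE 0.063). Efnb1 is a transmembrane ligand that measured 13.2, 14.8 and 15.6 CPM in controls and 18.4, 17.9 and 17.3 CPM after the lesion, and Efna3 is a lipid-anchored one that measured 50.9, 48.1 and 53.0 and 60.4, 54.6 and 60.4 CPM. Neither ephrin passed the test. Efnb3, the ephrin with the highest mean CPM over all libraries, measured 73.2, 76.7 and 82.3 CPM in controls and 81.7, 65.1 and 77.6 CPM after the lesion.

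Semaphorins gave 2 higher genes of 20. Sema7a, a lipid-anchored semaphorin that binds integrins and plexin C1, measured 174, 175 and 177 CPM in controls, where the libraries were nearly equal, and 199.99, 212 and 223 CPM after the lesion. Every lesioned library was higher, with a log2 fold change of 0.26 (adjusted p = 0.00853, SE 0.050). Sema5a, a transmembrane semaphorin with thrombospondin repeats, measured 67.9, 80.9 and 70.4 CPM against 85.1, 87.8 and 89.2 CPM. Here the highest control lay just under the lowest lesioned library, and the log2 fold change was 0.25 (adjusted p = 0.0364, SE 0.063). The 7 class 3 semaphorins, which are secreted, gave no call, and the nearest of them was Sema3d with -0.33 (adjusted p = 0.0891, SE 0.10). Sema6b, the semaphorin with the highest mean CPM, measured 171, 154 and 153 CPM in controls and 159, 165 and 158 CPM after the lesion.

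Of the semaphorin receptors 1 of 9 plexins and none of 2 neuropilins was called. Plxna2, a receptor for class 3 semaphorins together with neuropilins and for class 6 semaphorins directly, measured 213, 244 and 222 CPM in controls and 253, 271 and 266 CPM after the lesion. The groups did not overlap, and the log2 fold change was 0.21 (adjusted p = 0.0356, SE 0.053). The 4 class A plexins all had fold changes above 0, and the 3 class B plexins all below 0. Plxna4, a class A member, measured 139.8, 158 and 141 CPM against 159.5, 178 and 176 CPM and lay at the threshold, with a log2 fold change of 0.21 (adjusted p = 0.0505, SE 0.059). The neuropilins overlapped between groups: Nrp1, the co-receptor of Sema3a, measured 23.5, 28.7 and 21.1 CPM in controls and 24.9, 22.4 and 26.9 CPM after the lesion. Nrp2, the co-receptor of Sema3f, measured 36.7, 26.99 and 28.0 CPM and 31.6, 39.9 and 29.1 CPM.

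**Figure D1:**
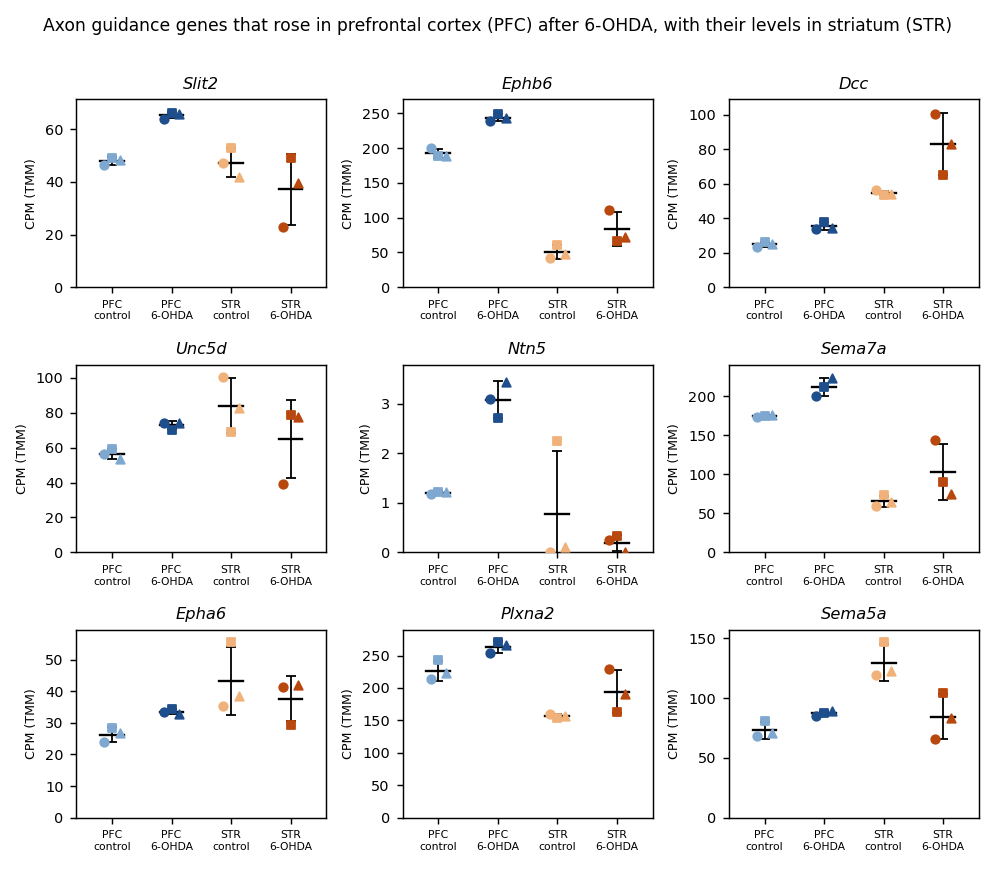
Levels of the 9 guidance genes that rose in lesioned prefrontal cortex, in TMM-scaled CPM on the vertical axis, for the 4 groups on the horizontal axis. Points are single libraries (circle, square and triangle for libraries 1, 2 and 3) and bars with whiskers are means ± SD of 3 libraries; in prefrontal cortex the lesioned points of every panel lie above the control points, while in striatum the groups of several panels overlap.

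Counted by overlap alone, 19 of the 67 genes had every lesioned prefrontal library above every control and 4 had every one below. The shares over all genes tested were 14.2% and 11.1%. The median log2 fold change of the 67 genes was 0.03, against -0.01 over all genes tested, and 21 of the 67 had an unadjusted p below 0.05, where the share over all genes was 20.6%. Ntn5, whose choice favoured a rise, is counted in the 19 and in the 21. In all, 58 guidance genes did not pass, and the bulk of the group lay near 0.

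Among other genes of guidance signalling the pattern was mixed. Of 37 further cues, receptors and co-receptors 4 rose and 1 fell. The cell adhesion molecules Cntn2, L1cam and Cntn4 and the receptor phosphatase Ptprf rose, with log2 fold changes of 0.29, 0.20, 0.19 and 0.20. Flrt3, a ligand of Unc5 receptors, fell by 0.49 on the log2 scale (adjusted p = 0.00853 by edgeR, SE 0.093). Of 46 signal transducers 1 rose, the plexin effector Mical3 with 0.28, and 4 fell: Rnd1, a GTPase that binds plexins, with -0.51, the actin-severing protein Cfl1 with -0.22, the semaphorin signal mediator Dpysl2 with -0.20 and the kinase Fyn with -0.21. These shares are to be read against the same 5.73% of all genes.

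Cell type markers moved beside these changes. Markers of cortical layers 2 to 4 summed to 691 to 721 CPM in control and 744 to 766 CPM in lesioned prefrontal libraries, although only Cux1 of the 8 was called, with a log2 fold change of 0.21. Layer 5 markers overlapped, at 545.8 to 600.4 CPM against 573.9 to 606.7 CPM, with 0 of 7 called, as did layer 6 markers, at 202 to 236 CPM against 201 to 221 CPM, also with 0 of 7 called. Astrocyte markers summed to 6814 to 7174 CPM in controls and 6187 to 6393 CPM after the lesion, with 7 of 12 lower, among them Sox9 with -0.56 and Fgfr3 with -0.43, and 1 higher, Slc4a4 with 0.27. Of 12 markers of oligodendrocyte precursors 3 were lower, with sums of 596 to 713 CPM against 534 to 592 CPM. Endothelial and mural markers likewise had 3 of 12 lower and summed to 432 to 469 CPM against 398 to 416 CPM, and markers of hypothalamus and basal forebrain border had 1 of 13 lower and summed to 383 to 429 CPM against 345 to 369 CPM. Of 15 markers of striatal projection neurons 14 had a fold change below 0, with a median log2 fold change of -0.36 and 0 calls, and they summed to 1065 to 1923 CPM against 1042 to 1374 CPM. Their part in the changes of the guidance genes was not tested.

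**Figure D2:**
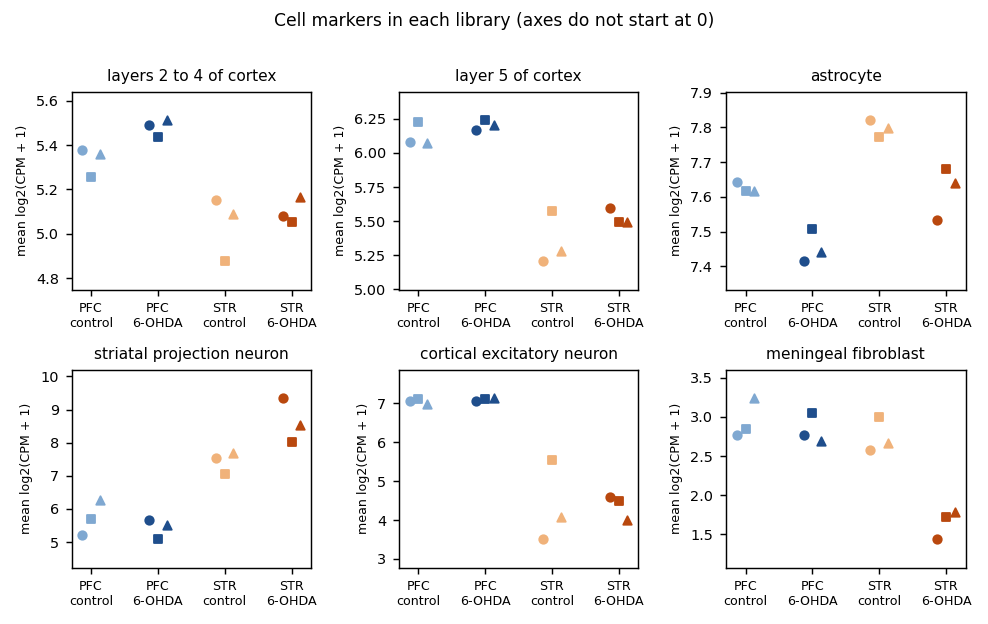
Mean log2(CPM + 1) of 6 marker lists in each of the 12 libraries, by group; the vertical axes do not start at 0. In prefrontal cortex the layer 2 to 4 markers of the lesioned libraries lie above the controls and the astrocyte markers below. In striatum lesioned library 1 lies highest for striatal projection neurons and control library 2 highest for cortical excitatory neurons.

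The calls in prefrontal cortex depended on the spread used to judge them. With all 12 libraries in 1 fit, whose spread includes that of striatum, 0 of the 67 genes passed and 5 had an unadjusted p below 0.05. Without lesioned library 2, or without lesioned library 3, 5 genes were called, Ntn5 among them. Slit2, Ephb6, Dcc and Unc5d kept their calls in 17 of 18 alternatives each, while Sema7a kept its call in 15, Epha6 in 13, and Plxna2 and Sema5a in 9. Ntn5 is left out here, since its choice favoured a rise in every alternative. After a correction for GC content and length Plxna2 had a log2 fold change of 0.10 and Sema5a of 0.16, and neither was called.

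The second comparison asked the same of striatum. Of 66 guidance genes tested 0 were called, and Ntn5 was too low to be tested. Over all 14288 genes 4, or 0.028%, passed, so that the test called almost nothing in this region. By edgeR's unadjusted values 24 of the 66 had a p below 0.05, where the share over all genes was 17.3%. Fold changes were above 0 for 26 genes and below 0 for 40, with a median log2 fold change of -0.17 against -0.0041 over all genes. Every lesioned library lay above every control for 8 of them and below for 18, where the shares over all genes were 13.1% and 12.7%. The genes with the smallest p-values are described next as values, since none passed.

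Of the Eph family, Epha3, a receptor for ephrin-A ligands, measured 10.9, 16.5 and 10.7 CPM in control striatum and 6.31, 6.42 and 6.60 CPM after the lesion. The lesioned libraries were nearly equal and all below the controls, and the log2 fold change was -0.99 (adjusted p = 0.144, SE 0.19). Ephb4, the receptor of ephrin-B2 on venous endothelium, measured 7.80, 7.81 and 7.75 CPM in controls, again nearly equal, and 5.09, 3.75 and 5.14 CPM after the lesion, with a log2 fold change of -0.75 (adjusted p = 0.161, SE 0.16). Ephb3 was lower in the same way, at 10.5, 14.8 and 11.6 CPM against 6.93, 9.04 and 7.88 CPM and a log2 fold change of -0.64 (adjusted p = 0.186, SE 0.17). Ephb6 lay on the other side: it measured 42.6, 61.2 and 47.7 CPM in controls and 111, 66.7 and 72.2 CPM in lesioned striatum, and lesioned library 1 stood far above the others. Its log2 fold change was 0.72 (adjusted p = 0.211, SE 0.22). Among ephrins the smallest p-values belonged to Efna1 with -0.51 (adjusted p = 0.385, SE 0.29) and Efnb3 with 0.11 (adjusted p = 0.476, SE 0.079). Efna1 is a lipid-anchored ligand that measured 3.73, 5.51 and 3.49 CPM in controls and 2.21, 3.96 and 2.74 CPM after the lesion, and Efnb3 measured 212, 207 and 218 and 215, 244 and 233 CPM.

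Among semaphorins and their receptors, Sema3b, a secreted class 3 semaphorin, measured 4.19, 6.26 and 3.80 CPM in controls and 1.72, 2.57 and 2.74 CPM after the lesion, a log2 fold change of -1.02 (adjusted p = 0.185, SE 0.27). Sema5a measured 119, 147 and 123 CPM against 66.2, 104 and 83.05 CPM, a log2 fold change of -0.63 (adjusted p = 0.186, SE 0.17), with every lesioned library below every control. Nrp2 measured 139, 131 and 119 CPM in controls and 26.2, 70.8 and 70.7 CPM after the lesion. The groups were far apart, but lesioned library 1 was much lower than the other lesioned libraries, and the log2 fold change was -1.22 (adjusted p = 0.187, SE 0.34). Nrp1 measured 32.7, 61.6 and 27.6 CPM against 14.3, 26.3 and 22.7 CPM, where control library 2 was highest, with -0.95 (adjusted p = 0.242, SE 0.34). Plxnd1, the receptor of Sema3e, measured 51.8, 38.9 and 67.5 CPM against 182, 68.2 and 108 CPM, where lesioned library 1 was highest, with 1.17 (adjusted p = 0.209, SE 0.36). Plxna2 measured 160.1, 153 and 157 CPM and 229.5, 163 and 191 CPM, with 0.30 (adjusted p = 0.278, SE 0.13).

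In the netrin and Slit systems Dcc measured 56.2, 53.7 and 54.2 CPM in control striatum, a narrow range, and 101, 64.8 and 83.1 CPM after the lesion. All lesioned libraries lay above, and the log2 fold change was 0.59 (adjusted p = 0.181, SE 0.15). Unc5b, a netrin receptor also found on endothelial cells, measured 45.5, 45.3 and 57.0 CPM against 66.7, 76.4 and 59.0 CPM, with 0.45 (adjusted p = 0.201, SE 0.13). Robo2 measured 83.1, 87.9 and 117 CPM in controls and 241, 125 and 168 CPM after the lesion, with 0.89 (adjusted p = 0.187, SE 0.24), and the groups did not overlap. Robo4, the Robo of blood vessels, measured 7.45, 6.83 and 6.84 CPM and 5.89, 4.76 and 5.55 CPM, with -0.39 (adjusted p = 0.237, SE 0.14). Slit2, called in prefrontal cortex, overlapped in striatum at 47.0, 52.9 and 41.9 CPM and 22.7, 49.0 and 39.7 CPM.

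**Figure D3:**
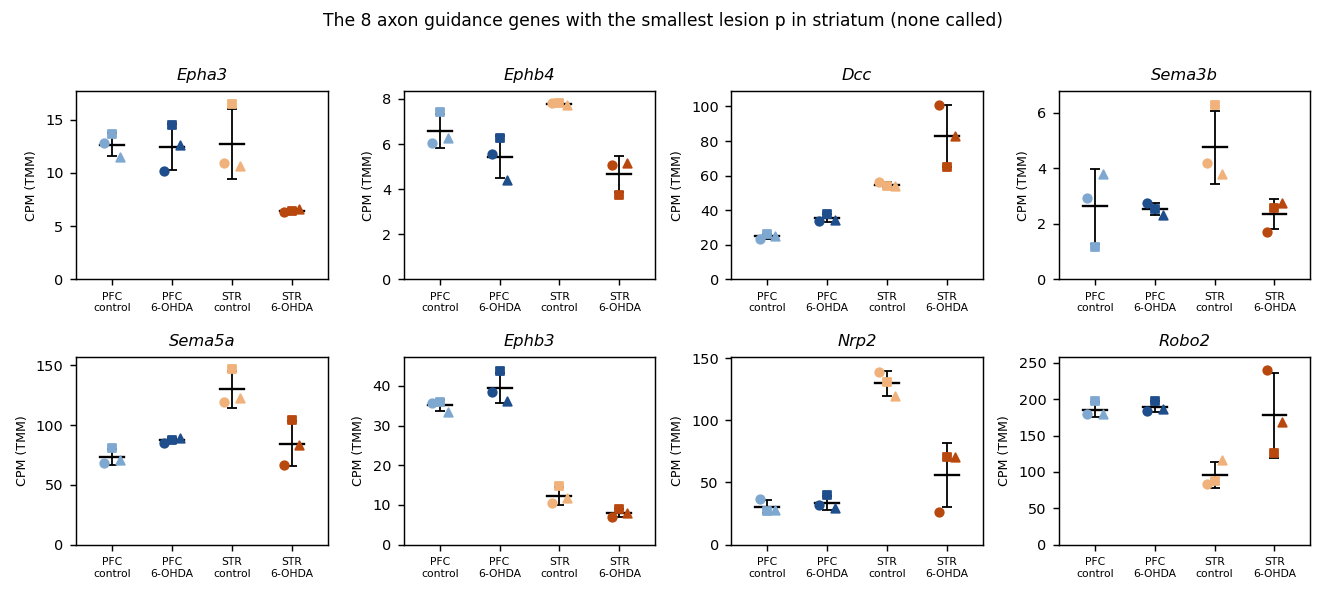
Levels in TMM-scaled CPM of 8 guidance genes with the smallest p-values in the striatal comparison, none of which passed the adjusted threshold, for the 4 groups on the horizontal axis. Points are libraries and bars with whiskers are means ± SD of 3. In striatum Dcc and Robo2 lie higher in every lesioned library and the other 6 genes lower. Lesioned library 1 is farthest from the controls in every panel but that of Ephb4, by a small margin for Epha3.

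Which striatal genes passed depended on the tool and the libraries. DESeq2 called 8, of which Dcc, Plxnd1 and Robo2 were higher and Epha3, Ephb4, Nrp2, Sema3b and Sema5a lower. Shares of all genes called under this and the next setting are not given here, so the counts are no result about guidance genes. Without lesioned library 1 and control library 2, edgeR called 2: Ephb6 with a log2 fold change of 0.62 and Nrp2 with -0.87. In that fit several values were smaller by over 1.5 times: the log2 fold change was 0.56 for Plxnd1, 0.55 for Robo2, 0.15 for Plxna2, -0.30 for Nrp1, -0.59 for Sema3b, -0.37 for Sema5a and -0.10 for Efna1. Without lesioned library 1 alone Plxna2 had 0.17 and Plxnd1 0.73, without control library 2 alone Nrp1 had -0.51 and Efna1 -0.27, and without lesioned library 2 Efna1 had -0.79 and Efnb3 0.061.

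Cell type markers differed between the striatal groups too. Markers of striatal projection neurons were above 0 for 16 of 16 genes, with a median log2 fold change of 1.28 and no call, and summed to 3272 to 5181 CPM in control and 6585 to 16896 CPM in lesioned libraries. Meningeal fibroblast markers were below 0 for 12 of 12 genes, with a median of -1.47 and 1 call, Slc22a6, and summed to 80.0 to 108 CPM against 26.0 to 41.3 CPM. Choroid plexus and ependymal markers summed to 93.3 to 2155 CPM against 56.6 to 82.4 CPM, and markers of hypothalamus and basal forebrain border to 1503 to 2234 CPM against 862 to 2017 CPM. Microglia markers were above 0 for 11 of 12 genes with no call and summed to 389.7 to 476 CPM against 481 to 612 CPM, and layer 5 markers to 446 to 477 CPM against 492 to 706 CPM. None of the 46 signal transducers or 37 further cues was called. What these markers contribute to the striatal values of the guidance genes was not tested.

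The third comparison set the lesion effects of both regions against each other. Of the 9 genes that rose in prefrontal cortex, 4 had a striatal fold change above 0 (Dcc, Ephb6, Sema7a and Plxna2), 4 below 0 (Slit2, Unc5d, Epha6 and Sema5a), and Ntn5 was not tested. In the test of the difference itself, striatal minus prefrontal effect over all 12 libraries, 0 of 67 genes were called and 19 had an unadjusted p below 0.05 by edgeR. Over all 14545 genes 12, or 0.0825%, passed, and 11.7% had an unadjusted p below 0.05. The smallest p-value belonged to Sema5a, whose log2 fold change was 0.25 in prefrontal cortex and -0.63 in striatum, a difference of -0.88 (adjusted p = 0.202, SE 0.19). Ephb3 followed with 0.16 and -0.64, a difference of -0.80 (adjusted p = 0.208, SE 0.18). In prefrontal cortex Ephb3 measured 35.8, 36.0 and 33.5 CPM in controls and 38.6, 43.7 and 36.3 CPM after the lesion. Of the 66 genes tested in both regions, only these 2 had lesioned libraries that all lay above the controls in one region and all below in the other. The share of all genes that did so was not counted, so this count is not read as a result about guidance genes. Ntn5, at 0, 2.24 and 0.101 CPM in control and 0.245, 0.321 and 0 CPM in lesioned striatum, overlapped there. Differences of -0.95 (adjusted p = 0.246, SE 0.25) for Epha3, -1.34 (adjusted p = 0.309, SE 0.40) for Nrp2, -0.49 (adjusted p = 0.309, SE 0.15) for Unc5c and 0.51 (adjusted p = 0.312, SE 0.16) for Ephb1 did not pass either. Without striatal lesioned library 1 and control library 2 the difference was -0.32 for Unc5c and 0.31 for Ephb1.

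**Figure D4:**
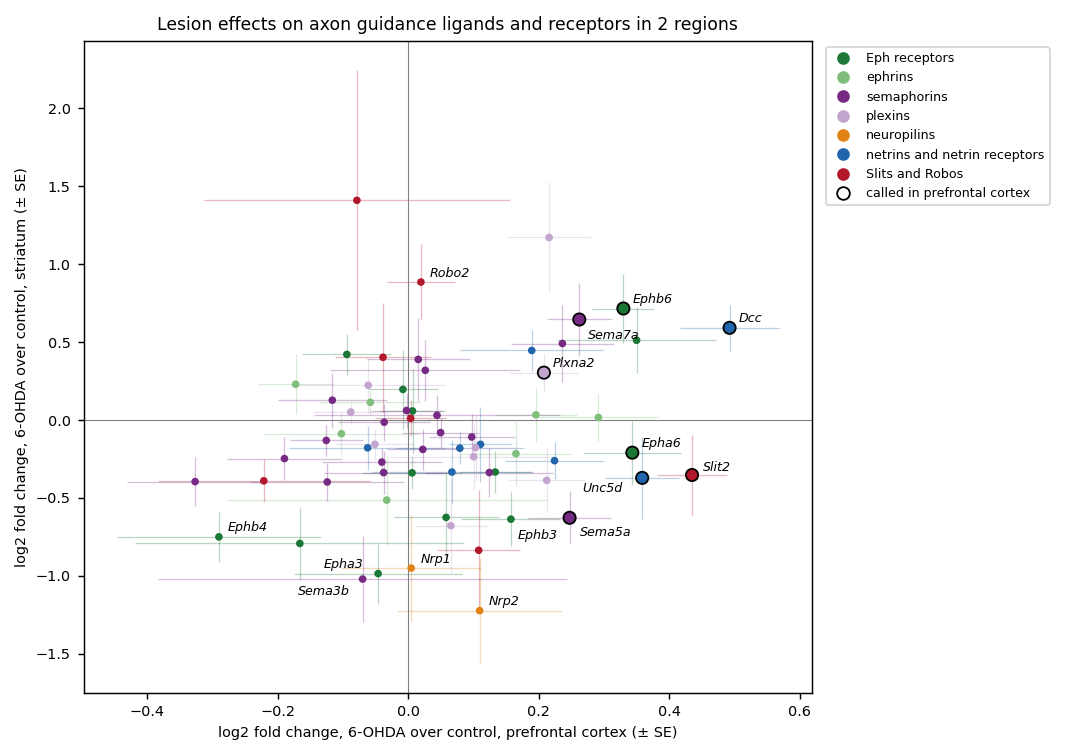
Log2 fold change of lesioned over control libraries in prefrontal cortex (horizontal axis) and in striatum (vertical axis) for 66 guidance genes, with whiskers of 1 SE; Ntn5, not tested in striatum, is not shown. Genes called in prefrontal cortex are edged in black and lie on both sides of 0 on the striatal axis, where the whiskers are wider.

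The test of the difference also varied with tool and libraries. DESeq2 called Ephb3 and Sema5a, edgeR without the striatal libraries that stood apart called Nrp2, Sema5a and Unc5d, and without striatal lesioned library 2 it called Ephb3, Robo2 and Sema5a. Shares of all genes called under these settings are not given here either.

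The last comparison set striatum against prefrontal cortex, first in control libraries. Of the 67 genes 34 were called, 23 higher in striatum and 11 lower. The shares over all genes tested were 42.3% in either direction, 21.3% higher and 21% lower, and the counts of the guidance genes are to be read against these. The median log2 fold change of the guidance genes was 0.21 against 0.02 over all genes. Netrins and their receptors were mostly higher in striatum, with 6 of 9 higher and 1 lower, and all 3 class B plexins were higher. Semaphorins had 7 of 20 higher and 3 lower, Eph receptors 2 of 13 higher and 3 lower, ephrins 1 of 7 higher, and Slits with Robos 2 of 7 in each direction.

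The gene with the largest fold above prefrontal cortex was Nrp2, which measured 36.7, 26.99 and 28.0 CPM in control prefrontal cortex and 139, 131 and 119 CPM in control striatum, a log2 fold change of 2.08 (adjusted p = 1.70e-05, SE 0.12). Its ligand Sema3f was higher in the same libraries, at 8.38, 6.03 and 8.499 CPM against 18.5, 14.4 and 18.6 CPM and 1.17 (adjusted p = 0.000859, SE 0.17). Neither pair of groups overlapped. Ntn1, the netrin for which Dcc is the receptor, measured 8.97, 8.91 and 11.3 CPM and 44.0, 27.8 and 31.0 CPM, with 1.82 (adjusted p = 0.000170, SE 0.19). Dcc measured 23.3, 26.2 and 25.2 CPM in control prefrontal cortex against 56.2, 53.7 and 54.2 CPM, with 1.14 (adjusted p = 1.85e-05, SE 0.069). Ligand and receptor were thus both higher in striatum, as was Unc5b with a log2 fold change of 1.02. Efnb3 measured 73.2, 76.7 and 82.3 CPM against 212, 207 and 218 CPM, the smallest p-value of the guidance genes, with 1.46 (adjusted p = 7.76e-06, SE 0.063). Epha8, an Eph receptor of low level, measured 7.99, 6.54 and 7.68 CPM against 18.5, 16.1 and 17.2 CPM, with 1.22 (adjusted p = 0.000117, SE 0.12).

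Lower in control striatum was first Robo3, the Robo family member of commissural axons, at 39.6, 18.4 and 29.7 CPM in prefrontal cortex and 1.22, 12.3 and 3.24 CPM in striatum. Both groups were widely spread, and the log2 fold change was -2.39 (adjusted p = 0.0161, SE 0.63). The call was lost without prefrontal control library 1 and without striatal control library 3. Without striatal control library 2, which stood apart, the log2 fold change was -3.68 (adjusted p = 7.63e-06 by edgeR, SE 0.38). Over the alternatives it ran from -3.68 to -1.93. Ephb6 was lower with far less spread, at 200.3, 188 and 188 CPM against 42.6, 61.2 and 47.7 CPM and -1.93 (adjusted p = 2.50e-05, SE 0.13). Ephb3 and Sema7a had log2 fold changes of -1.51 (adjusted p = 6.84e-05, SE 0.13) and -1.41 (adjusted p = 1.51e-05, SE 0.080). Plxnd1 had -1.08 (adjusted p = 0.00167, SE 0.18) and Robo2 -0.95 (adjusted p = 0.000531, SE 0.12), and in both genes every striatal control lay below every prefrontal control.

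In lesioned libraries, which share none with the controls, 36 of 67 guidance genes were called, 16 higher in striatum and 20 lower. The shares over all genes were 45.2% in either direction, 22.7% higher and 22.5% lower. Of the 67 genes 14 were higher in both sets, 7 lower in both and 0 opposite, while 18 were called in neither. The same counts over all genes were not made, so this agreement is not read as particular to guidance genes. Efnb3, Ntn1, Unc5b and Dcc were again higher in striatum, with log2 fold changes of 1.63, 1.42, 1.28 and 1.23. Ephb3, Ephb6 and Sema7a were again lower, with -2.31, -1.55 and -1.04. Ntn5, one of the 20 lower genes and of the 36 called, entered only through its level in lesioned prefrontal cortex. Its choice thus favoured a call as lower in striatum, and no test of it is given here. Nrp2, Plxnd1, Robo2 and Robo3 were not called among lesioned libraries, at 0.74 (SE 0.34), -0.14 (SE 0.30), -0.088 (SE 0.20) and -0.92 (SE 0.50). Without striatal lesioned library 1 all 4 were called, with log2 fold changes of 1.08, -0.58, -0.37 and -1.81.

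**Figure D5:**
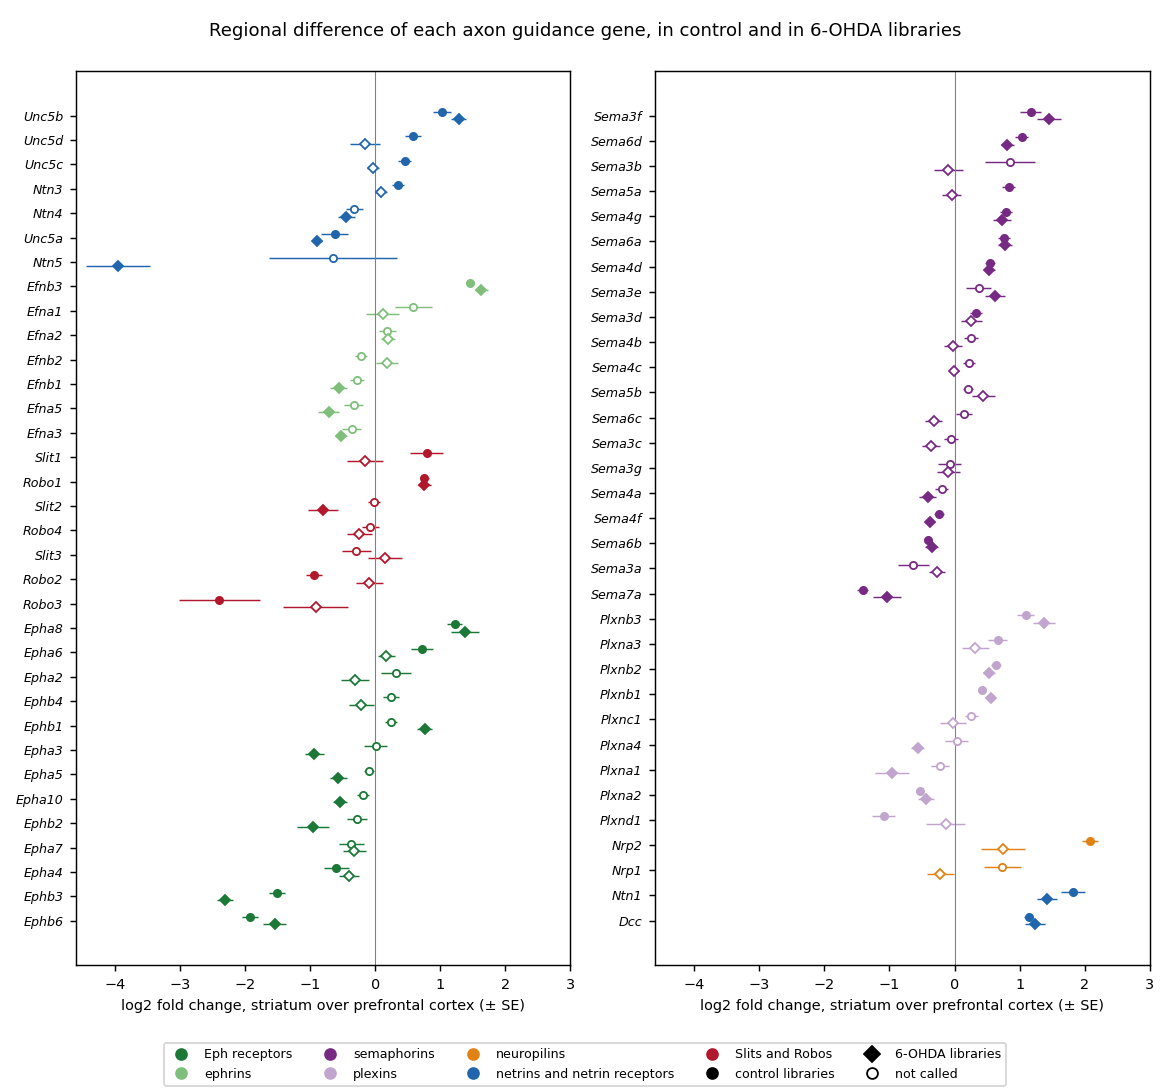
Log2 fold change of striatum over prefrontal cortex for the guidance genes, in control libraries (circles) and lesioned libraries (diamonds), on the horizontal axis, with 1 gene per row; filled symbols passed an adjusted p below 0.05. Efnb3, Ntn1 and Dcc lie to the right in both sets, Ephb6, Ephb3 and Sema7a to the left in both, and 0 genes are filled on opposite sides.

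Markers differed strongly between the regions. In controls all 12 markers of mature oligodendrocytes were higher in striatum, summing to 6345 to 8892 CPM in prefrontal and 14445 to 18266 CPM in striatal libraries. Of the 16 striatal projection neuron markers 15 were higher, of 15 cortical excitatory markers 10 were lower, and of 15 markers of hypothalamus and basal forebrain border 13 were higher. Their part in the regional differences of the guidance genes was not tested. Without striatal control library 2, 45 guidance genes were called in controls, 25 higher and 20 lower. The share of all genes called in that fit is not given here, so this count is no result about guidance genes. TMM scaling set striatal libraries apart from prefrontal ones by a log2 shift of 0.13 relative to library totals. The part of this shift in the regional differences of the guidance genes was not tested.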

How the data were processed

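Messenger RNA was sequenced in 12 libraries, 3 in each of 4 groups. Per the labels' protocols, 500 ng of total RNA with an integrity number of at least 8.9 went into stranded libraries sequenced as pairs of 101 bp. The authors deposited raw read counts per gene symbol. The submitters' processing notes name STAR 2.7.1a, featureCounts and build mm10; the sources used here do not give the annotation or the strand setting. All 1830 symbols holding only multiples of 11, which carry 0.144% of counts and no guidance gene, were left out.

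Counts were tested in R 4.3.3 with edgeR 4.0.16 (filterByExpr, TMM factors, quasi-likelihood test, two-sided, Benjamini-Hochberg over all genes tested). Lesion and region comparisons used the 6 libraries compared, and the difference of lesion effects all 12. The standard error is the absolute log2 fold change over the root of F. Scripts were tested on simulated data. Alternatives were other scalings and filters, DESeq2 1.42.0, limma-voom (limma 3.58.1), a replicate block, a GC and length correction, 1 fit of all libraries, and each library left out.

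Shown in full are called genes of the lesion comparisons, per family the most abundant gene and the 2 with the smallest p in each lesion comparison, and for control regions the 6 largest called changes in each direction above 5 CPM; other genes named were chosen after their values were seen. The genes and lists were chosen with earlier results of these data known. Exon lengths come from GENCODE M21.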

Additional observations from a re-analysis of the deposited data

Results flagged for a closer look

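In 2 of the 66 genes tested in both regions the lesioned libraries lay on opposite sides of the controls. In these 2 all lesioned prefrontal libraries were above the controls and all lesioned striatal libraries below them. Over all genes tested, 14.2% lay wholly above the controls in prefrontal cortex and 12.7% wholly below them in striatum. The share with both was not counted, so 2 of 66 is not read as a result about guidance genes. For Ephb3 the log2 fold change was 0.16 in prefrontal cortex and -0.64 in striatum, a difference of -0.80 (SE 0.18) with an adjusted p of 0.208 by edgeR. For Sema5a it was 0.25 and -0.63, a difference of -0.88 (SE 0.19) with an adjusted p of 0.202. With all 12 libraries the difference passed the threshold in neither gene by edgeR, and in both by DESeq2. Without striatal lesioned library 2 edgeR called both genes. Without the striatal libraries that stood apart it called Sema5a but not Ephb3.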

How the results depend on the processing

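The count of guidance genes called in prefrontal cortex ranged from 7 to 11 over the alternatives that kept all compared libraries, apart from 0 with all 12 libraries in 1 fit, and from 5 to 11 when 1 library was left out. Apart from that 0, these counts include Ntn5, whose choice favoured a rise. In striatum 0 became 8 with DESeq2, 12 in the fit of all 12 libraries (6 higher, 6 lower) and 2 without the libraries that stood apart, and was 0 to 0 when 1 library was left out. For the difference between lesion effects 0 became 2 with DESeq2 and 3 without those libraries, and was 0 to 3 with 1 library left out. Region counts ranged from 27 to 45 in controls and from 28 to 45 in lesioned libraries with 1 left out. Shares over all genes under the alternatives, here and below, are not given, so these counts are no result about guidance genes. Of the genes that the naming rule takes, for which fold changes were recomputed, some changed sign, each time without a call: Nrp1 in prefrontal cortex (-0.085 to 0.13 with 1 library left out, below 0 without control 1 or 3 or lesioned 1 or 3), Nrp2 there (-0.030 to 0.28, below 0 without lesioned 2), and Plxnd1 (-0.58 to 0.14) and Robo2 (-0.37 to 0.11) between lesioned regions, above 0 without striatal lesioned 2. The cause was not tested.

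Correlations between the deviations of same-numbered libraries ran from -0.11 to 0.09. Between regions in controls, numbers 1 and 3 gave 0.082 and 0.092 and number 2 gave -0.0039, against at most 0.028 for different numbers. In lesioned libraries numbers 1, 2 and 3 gave 0.075, 0.036 and -0.0044, against at most 0.053. Between lesioned and control libraries of a region different numbers reached 0.18. Whether same-numbered libraries of the 2 regions share a mouse is not labelled, so the replicate block is an alternative only. With it 10 genes were called in prefrontal cortex, 0 in striatum, 34 and 39 between regions in control and lesioned libraries, and 0 for the difference. With the block and the GC and length correction together these counts were 9, 0, 40, 40 and 0. At 3 counts, a floor of 0.143 to 0.199 CPM, depth limits Ntn5 in striatum.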

Other observations

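Of the 67 genes 18 were called by edgeR in none of the 5 comparisons as described in the report. Under another setting 4 of them passed in a lesion comparison: Ephb4 and Sema3b in striatum with DESeq2, Epha2 and Ephb4 there in the fit of all 12 libraries, and Efnb2 in prefrontal cortex with the replicate block and the GC and length correction. They were 8 semaphorins (Sema3a, Sema3b, Sema3c, Sema3g, Sema4b, Sema4c, Sema5b and Sema6c), 3 ephrins (Efna1, Efna2 and Efnb2), 3 Eph receptors (Epha2, Epha7 and Ephb4), Nrp1, Plxnc1, Robo4 and Slit3. The steadiest was Sema4c, a transmembrane semaphorin, which lay between 15.9 and 21.01 CPM over the 12 libraries. Efna2, a lipid-anchored ephrin, lay between 7.85 and 10.97 CPM. At the other end Sema3b ranged from 1.15 to 6.26 CPM and Nrp1 from 14.3 to 61.6 CPM, so a lack of calls did not mean equal levels. The share of all genes without any call was not counted. So 18 of 67 is not read as a result about guidance genes. The names in this paragraph were chosen after their values were seen.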
